A study of Rattus norvegicus with 2 samples.

Results

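Genes of the motile cilia of ependymal cells and genes of the choroid plexus were compared in the hypothalamus between the sexes of the spontaneously hypertensive rat (SHR), an inbred line whose blood pressure climbs with age. Of 35 genes chosen by name, 27 belong to motile cilia and 8 to the choroid plexus. The array files name probes by RefSeq accession, and a probe could be matched for 24 of the 35 genes, among 16099 named genes on the array. For 20 of them the probe was well above background in both pools by the scanner software's flag, and for 3 in 1 pool only. Probes were matched for 16 of the 27 cilia genes and for all 8 choroid plexus genes. Dnah2, Dnah5, Dnah6, Dnah7, Dnah9, Dnah11, Rsph4a, Spag17, Ccdc39, Hydin and Pifo had no matched probe and were not analysed here.

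Each sex was 1 RNA pool of 5 rats aged 9 weeks, with 100 ng of RNA from each rat and no treatment named in the labels, and each pool was read on 1 single-colour array. With 1 array for each sex nothing could be tested, and the values describe these 2 pools alone, also where they are called males and females. The labels name no difference between the pools other than sex, all rats were killed with ether and decapitation, and pooling leaves no spread between rats. A difference is the log2 signal of the male pool less that of the female pool, with each array first divided by its 75th percentile of spot signal (2203 units for males and 2254 for females). Each is given with a technical SD taken from repeat spots of other probes, which covers printing and scanning and not rats or arrays. The scanner software's own error for a difference was at least 0.20. Counts of genes with more signal in males or females refer to the scaled signal. In an RNA pool, fewer cells of a type and less RNA per cell cannot be told apart.

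Ependymal cells line the ventricles, including the third ventricle inside the hypothalamus, and beat tufts of motile cilia that move cerebrospinal fluid. Such a cilium holds a ring of paired microtubules around a central pair, with dynein arms that drive sliding and radial spokes that pass signals to them. The choroid plexus, which hangs into the ventricles, is an epithelium that secretes cerebrospinal fluid through ion channels and transporters. It is not part of the hypothalamus but can adhere to a dissected block.

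Sequence near the start sites was examined because motile cilia genes are known targets of RFX transcription factors, which bind the X-box. Promoter windows of 300 bases, from 250 bases before to 50 bases after the start, were taken from RefSeq (build GRCr8). They matched 21 of the 27 cilia genes and 3 of the 8 choroid plexus genes. The letters GTTGCC, a core of the X-box, or their reverse complement GGCAAC were found in 10 of the 21 cilia genes. Over all 27457 genes with a promoter the share was 13.1%. In further lists it was 34 of 73 other motile cilia genes, 14 of 30 primary cilium genes, 4 of 35 other choroid plexus genes and 3 of 6 red blood cell genes. Neither Kcnj13, Kl nor Prlr had a match. The forkhead core TGTTTAC, on either strand, was in 1 of the 21 cilia genes, against 4.13% of all genes. The stretches of 60 bases below are those of the cilia members measured in both pools whose match ends no later than the start base. The match is in capitals, and each stretch is written along the gene's strand. They lie at chr10:100258933-100258992 (plus strand) for Dnai2, chr8:82029528-82029587 (plus) for Mns1, chr10:57479135-57479194 (minus) for Tekt1, chr5:143907728-143907787 (minus) for Tekt2 and chr10:14992225-14992284 (plus) for Tekt4.
Dnai2: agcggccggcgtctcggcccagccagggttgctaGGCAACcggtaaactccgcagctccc
Mns1: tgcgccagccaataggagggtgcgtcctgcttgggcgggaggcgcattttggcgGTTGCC
Tekt1: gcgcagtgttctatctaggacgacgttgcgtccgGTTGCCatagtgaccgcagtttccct
Tekt2: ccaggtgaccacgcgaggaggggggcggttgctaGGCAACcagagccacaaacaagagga
Tekt4: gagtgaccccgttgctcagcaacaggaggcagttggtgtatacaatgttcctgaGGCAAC
The match began 55 bases before the start in Dnai2, 39 in Tekt1, 29 in Tekt2 and 5 in Mns1 and Tekt4. The longest run shared by the Dnai2 and Tekt2 stretches was GGTTGCTAGGCAACC. It was read off these sequences, so its count on either strand, 2 of 27457 genes, is a description of how it was chosen. A match of letters is a description and not a measured binding site.

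The motile cilia genes had nearly the same signal in both pools. Of the 14 members well above background in both, 5 had more signal in males and 9 in females, and their median difference was -0.02. Over all 12052 named genes measured in both pools the median was also -0.02, and 42.8% were higher in the male pool. The 14 differences ran from -0.20 to 0.28, and 0 of 14 were at least 1.5-fold apart, against 2.9% of all named genes. That share of 14 genes is under 1 gene, so the count does not set the members apart. With dim sides set to their bound, 0 of 15 were that far apart, against 5.11%. The size of the difference had a median of 0.13 over the members and 0.08 over all named genes. The members were dimmer, with a median signal of 8.79% of the 75th percentile against 25.2%, and the technical SD is larger at low signal. The part of signal level in this contrast was not tested. The sign of Tekt1 turned between scalings of the arrays, and those of Rsph1 and Ccdc40 turned with normexp background correction; all 3 differences were near 0. Foxj1 and Ak7 were the 2 cilia members whose difference exceeded its scanner error, 14.3% of the 14 against 14.6% of all named genes.

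Some spots lay in patches of the slide. A spot was counted as in a patch where at least 2 of its 18 closest measured spots from other probes were 2-fold or more apart in 1 shared direction, whatever its own difference. Over all measured spots, 80.2% of those at least 2-fold apart lay in patches, against 9.03% of the others. Among the members measured in both pools, the spots of Spef2, Otx2 and Prlr were in patches.

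**Figure D1:**
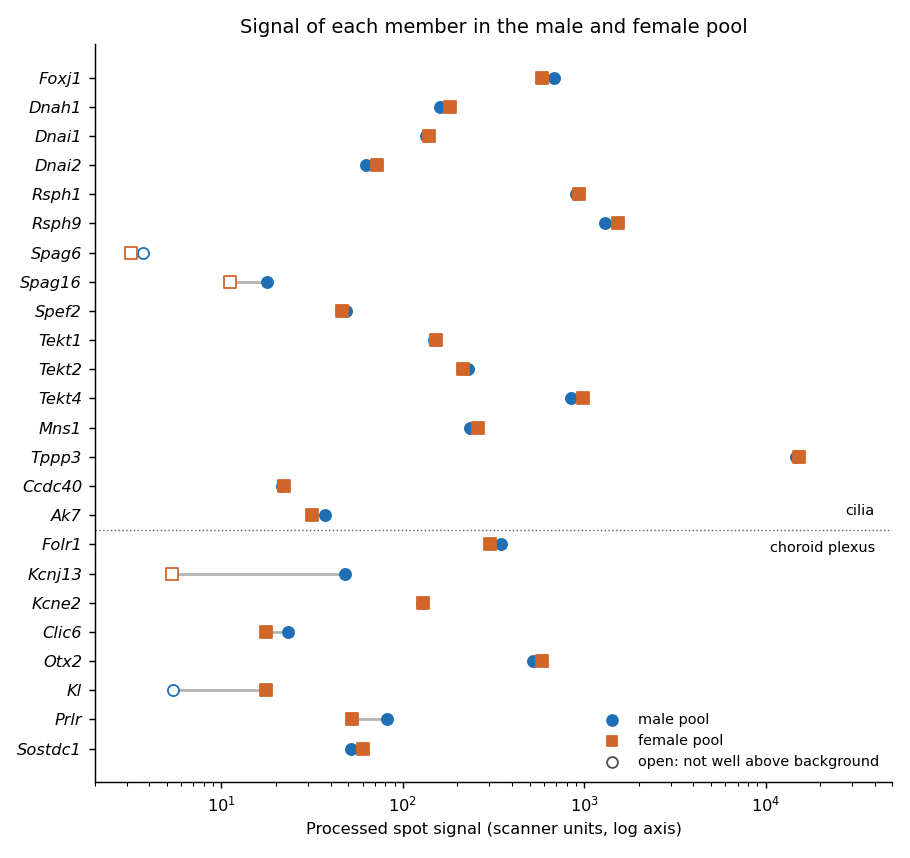
Processed spot signal (scanner units, log axis) of the 24 matched genes in the male pool (circles) and the female pool (squares), 1 array each; open symbols were not well above background. Rows are separate probes and are to be read across, not down. The symbols nearly overlap for most cilia genes, and Kcnj13 shows the widest gap, at 48.1 units in males and 5.31 in females.

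Foxj1 encodes the forkhead factor that switches on the motile cilia programme. Its brighter probe read 681 units in males and 584 in females, a difference of 0.26 ± 0.09 (technical SD, 1 spot). Its dimmer probe read 261 and 272 units, a difference of -0.02 ± 0.12. The probes thus gave a higher male signal in 1 case and nearly equal signals in the other.

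Axonemal dyneins, the motors of the cilium, were represented by 3 of 9 members, all slightly lower in the male pool. The heavy chain gene Dnah1 read 160 units in males and 182 in females, a difference of -0.16 ± 0.12, and its dimmer probe was not well above background in either pool. The outer arm intermediate chain genes Dnai1 and Dnai2 were at -0.03 and -0.17, each with a technical SD of 0.20. Dnai1 read 133 units in males and 140 in females. Dnai2 read 62.9 and 72.3 units. The scanner error of these differences, 0.21 to 0.23, was larger than each of them.

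Radial spoke heads stand at the end of the spokes, next to the central pair. The head gene Rsph1 read 903 units in males and 932 in females, a difference of -0.01 ± 0.09. Rsph9, another head component, read 1300 and 1532 units, a difference of -0.20 ± 0.09. The Rsph9 difference was the lowest of the 14 and lay within its scanner error of 0.20.

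The central pair and its projections had 1 member of 5 measured in both pools. Spef2, a central apparatus protein also needed for sperm tails, read 48.6 units in males and 46.2 in females, a difference of 0.10 ± 0.20. Spag16, a central pair protein, passed the background flag in males alone, at 17.9 units against 11.2. Since the female signal was dim, its difference is a bound: at least 1.42-fold higher in males, with a technical SD of 0.46 in log2. Spag6, another central pair protein, was not well above background in either pool, at 3.69 and 3.16 units, and has no fold.

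Tektins are filament proteins inside the microtubule doublets. Tekt1 read 149 units in males and 152 in females, a difference of 0.00 ± 0.12. Tekt2 read 228 and 213 units, a difference of 0.13 ± 0.12. Tekt4 read 842 and 984 units, a difference of -0.19 ± 0.09. The tektins thus differed by small amounts, in opposite directions. Mns1, an axonemal protein inside the doublets, read 233 units in males and 260 in females, a difference of -0.13 ± 0.12.

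Tppp3 encodes a microtubule-bundling protein and is used as an ependymal marker. It read 14621 units in males and 15197 in females, a difference of -0.02 ± 0.07. That difference was smaller than its technical SD.

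Among the remaining members, Ccdc40 encodes a partner of the molecular ruler that sets the spacing of dynein arms and spokes. It read 21.7 units in males and 22.2 in females, a difference of -0.00 with a technical SD of 0.46. Its dimmer probe passed the background flag for males alone, at 19.1 units against 11.4, a bound of 1.51-fold. Ak7, an adenylate kinase of motile cilia, read 37.3 and 31.5 units. Its difference of 0.28 was the highest of the 14 and below its technical SD of 0.46, though above its scanner error of 0.27.

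**Figure D2:**
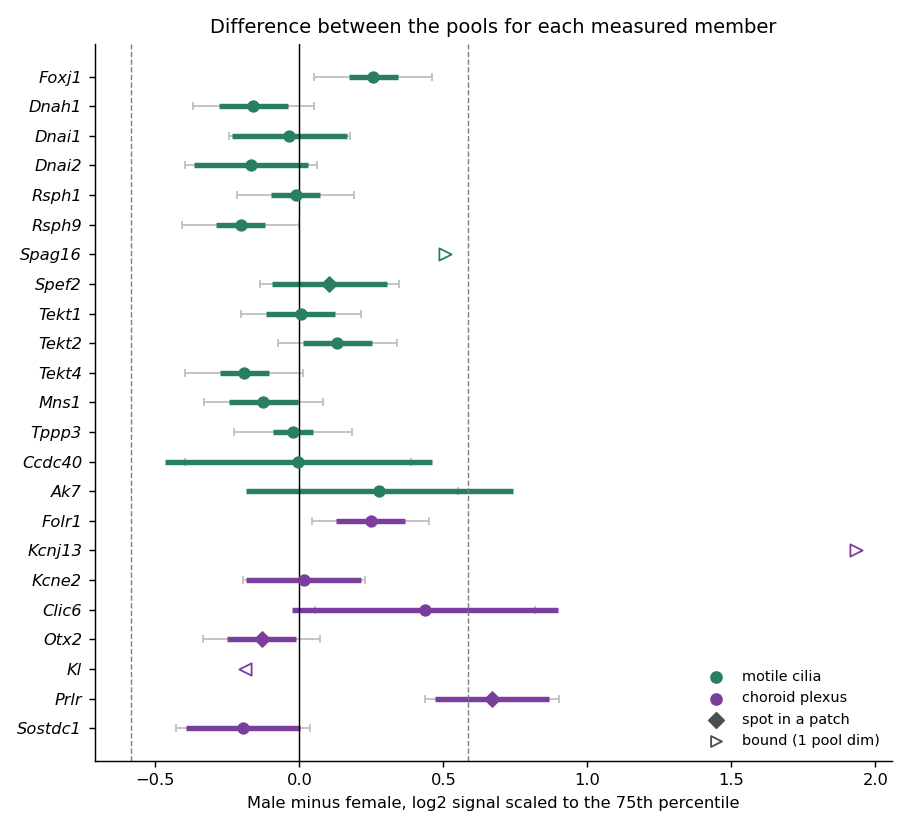
Male minus female difference (log2, each array scaled to its 75th percentile) of the 23 members with a value. Thick bars are the technical SD and thin bars the scanner error; diamonds mark spots in patches, open triangles are bounds and dashed lines mark 1.5-fold. All 14 cilia genes measured in both pools lie inside the dashed lines, between -0.20 and 0.28, while Prlr at 0.67 lies outside.

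The choroid plexus genes were more spread as scaled here, but not with normexp background correction. Of 6 well above background in both pools, 4 had more signal in males and 2 in females. Their differences had a median of 0.13 and ran from -0.20 to 0.67. With normexp the median was 0.04 and the 6 differences ran from -0.14 to 0.18. The 14 cilia members then ran from -0.20 to 0.28. Of the 6, 1 was at least 1.5-fold higher in males, against 1.98% of all named genes, and that gene, Prlr, rested on a spot in a patch. With dim sides at their bound, 2 of 8, Prlr and Kcnj13, were that much higher in males, against 3.38%, and 0 of 8 lower, against 1.73%. Their summed signal was 52.5% of the 75th percentile in males and 50.9% in females.

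Transporters and channels were nearly equal or higher in the male pool on their brighter probes. Folr1 encodes the folate receptor that carries folate into cerebrospinal fluid. It read 348 units in males and 300.5 in females, a difference of 0.25 ± 0.12. Kcnj13 encodes the inward rectifier potassium channel of the plexus epithelium. It read 48.1 units in males and 5.31 in females, where it was not well above background. Against the lowest signal that passed the flag in females, it was at least 3.82-fold higher in males, and the log2 difference was 0.67 with normexp. Among all named genes measured in at least 1 pool, 1.94% were at least 2-fold higher in males when the dim side was set to its bound. The Kcnj13 signal came from 1 spot, outside patches.

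Kcne2, a potassium channel subunit of the same membrane, was nearly equal between the pools, and its sign turned between scalings. It read 127 units in males and 129 in females, a difference of 0.01 ± 0.20, and -0.13 ± 0.20 on its dimmer probe. Clic6, a chloride intracellular channel family gene, read 23.2 units in males and 17.6 in females. Its difference of 0.44 was below its technical SD of 0.46, and it was 0.08 with normexp.

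Of the regulators and secreted proteins, Otx2 encodes the homeobox factor needed to form the choroid plexus. Its brighter probe read 523 units in males and 586 in females, a difference of -0.13 ± 0.12, on a spot in a patch. Its dimmer probe, outside patches, read 218 and 180 units, a difference of 0.31 ± 0.12. The probes thus went opposite ways. Kl encodes klotho, the co-receptor of a fibroblast growth factor. It was well above background only in the female pool, at 17.7 units against 5.39, which gives at least 1.14-fold with a technical SD of 0.46 in log2. Sostdc1, a secreted antagonist of bone morphogenetic protein and Wnt signals, read 51.5 units in males and 60.4 in females, a difference of -0.20 ± 0.20.

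Prlr, the prolactin receptor gene, is expressed in the choroid plexus and also in hypothalamic neurons that answer to prolactin. Its brighter probe, for transcript NM_012630, read 81.8 units in males and 52.7 in females, which is 1.59-fold higher in males. Its dimmer probe, for transcript NM_001034111, read 48.9 and 57.5 units, a difference of -0.20 ± 0.20. The brighter spot lay in a patch and the dimmer one did not. Without spots in patches the direction was therefore turned, and with normexp the brighter probe was at 0.12.

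**Figure D3:**
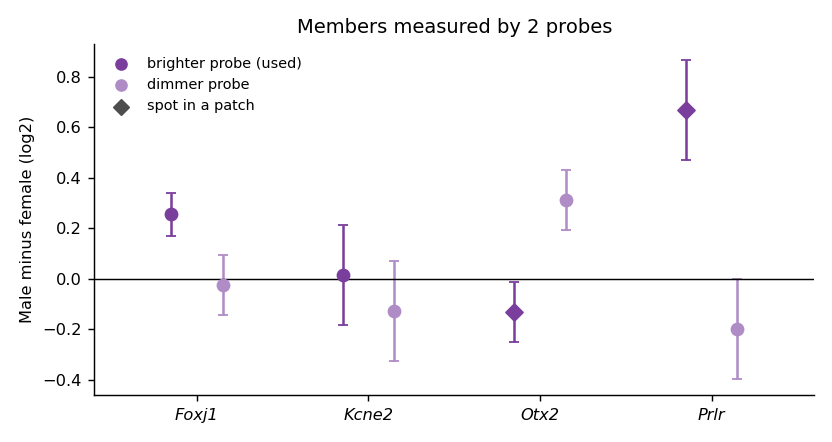
Male minus female difference (log2) of the 4 members with 2 probes well above background in both pools; bars are the technical SD and diamonds are spots in patches. The probes of all 4 lie on opposite sides of 0, with the brighter probe given first. Those of Otx2 are at -0.13 and 0.31, and those of Prlr at 0.67 and -0.20. Those of Foxj1 are at 0.26 and -0.02, and those of Kcne2 at 0.01 and -0.13.

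Of 90 further motile cilia genes, 54 were well above background in both pools, 33 with more signal in males and 21 with more in females, at a median of 0.04. Among them 3 were at least 1.5-fold lower in males and 0 that much higher, against 0.913% and 1.98% of all named genes. These were Enkur, which encodes an axonemal adaptor protein, at -1.05 ± 0.20, Efhb, an EF-hand protein gene, at -0.81 ± 0.12, and Kif27, a kinesin gene, at -0.64 ± 0.20. All 3 were measured on 1 spot each, and each of those spots was in a patch. Over the 49 genes left without spots in patches, 0 were at least 1.5-fold apart, and they ran from -0.31 to 0.43. The X-box factor genes Rfx2 and Rfx4, picked out after their values were seen, were at 0.03 ± 0.09 and 0.14 ± 0.12. Rfx2 read 560 units in males and 561 in females.

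Genes of the primary cilium, the immotile sensory cilium that neurons and glia carry, were set beside them. Of 28 measured, 7 had more signal in males and 21 in females (median -0.08). None was at least 1.5-fold apart, against 2.9% of all named genes, so this count does not set the list apart. Ift57, an intraflagellar transport gene, had the largest difference at 0.46 ± 0.20. Dync2h1, the motor heavy chain of retrograde transport, was next at -0.30 ± 0.46. The difference between the primary and motile cilia lists was not tested.

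Of 40 further choroid plexus genes, 28 were measured in both pools, 19 with more signal in males and 9 with more in females, at a median of 0.08. Among them 3 were at least 1.5-fold higher in males, each also at least 2-fold, against 0.987% of all named genes at 2-fold. These were Steap1, a metalloreductase family gene, at 1.65 ± 0.20 on a spot in a patch, Igf2 at 1.41 ± 0.05 and Igfbp2 at 1.02 ± 0.06. Igfbp2 had 1 of its 2 spots in a patch. Among the genes with no spot in a patch, only Igf2 was at least 1.5-fold apart. Igf2, an insulin-like growth factor, and Igfbp2, one of its binding proteins, are also made by the meninges. Igf2 read 4844 units in males and 1872 in females. Ttr, the transthyretin gene and the defining transcript of the plexus, was picked out after its values were seen. It read 1461 units in males and 1271 in females, a difference of 0.23 ± 0.03 over 8 spots, beside a scanner error of 0.20. Of the plexus genes Slc4a5, Cldn2, Tmem72, Car12, Mfrp, Abca4 and Pon1, none was well above background in either pool.

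Among the lists of markers of other cells, the meningeal fibroblast and red blood cell lists had the largest median differences. All lists were chosen with earlier results of these data known. Their counts are therefore descriptions, and setting them beside the shares of all named genes is no test. Of 19 meningeal fibroblast genes 18 were measured, and all 18 had more signal in males. Their median was 0.85, and 13 were at least 1.5-fold higher, against 1.98% of all named genes. Of the 18, 6 had a spot in a patch. Over the 12 genes with no spot in a patch, 9 were at least 1.5-fold higher. The summed signal of the 18 was 693% of the 75th percentile in males and 376% in females. Of the red blood cell genes, 5 of 5 measured had more signal in males, at a median of 0.84 and a summed signal of 2358% against 1369%. Of 13 neuron genes, 2 had more signal in males and 11 in females (median -0.06). All 9 oligodendrocyte genes measured had more signal in males (median 0.17), as had 7 of 10 endothelial genes (median 0.18) and 7 of 9 astrocyte genes (median 0.04). The difference exceeded its scanner error in 0 of 13 neuron genes and 2 of 9 astrocyte genes. It did so in 3 of 9 oligodendrocyte and 5 of 10 endothelial genes, against 14.6% of all named genes. Of 10 pituitary genes, 6 were measured in both pools, 4 with more signal in males and 2 with more in females, at a median of 0.22. Their summed signal was 147% of the 75th percentile in males and 68.5% in females. The hormone subunit genes Tshb and Cga were 12.4-fold and 4.08-fold higher in males, Cga on a spot in a patch. Prl, the prolactin gene, passed the background flag in females alone, on a spot in a patch, at least 7.91-fold higher there. The part of meninges, blood, pituitary and glia in the Igf2, Igfbp2, Kcnj13 and Prlr differences was not tested. The motile cilia genes, at a median of -0.02, did not show a shift of the size seen in the meningeal and red blood cell lists.

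**Figure D4:**
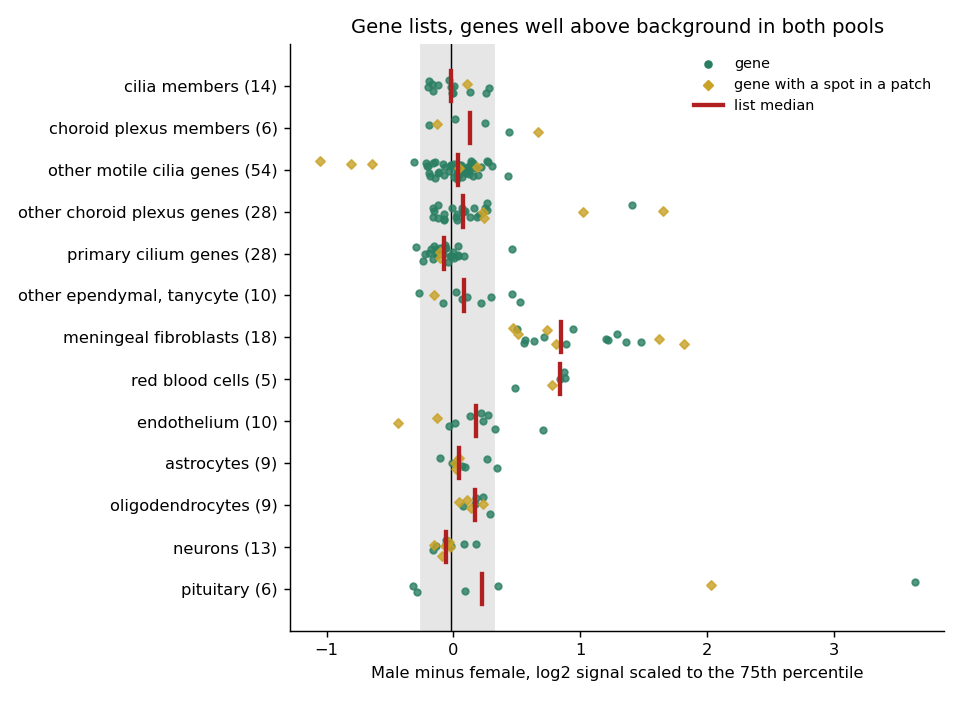
Male minus female difference (log2) of every gene well above background in both pools, by list, with the number of genes in parentheses; red bars are list medians, the black line is the median of all named genes and the grey band holds the middle 90% of them. The 14 cilia members lie inside the band at a median of -0.02, while the meningeal fibroblast list lies to the right at 0.85; yellow diamonds are genes with a spot in a patch.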

How the data were processed

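Spot intensity values were made, per the file headers, with Agilent Feature Extraction 11.5.1.1 (the submitters' processing notes name 9.1). They comprise a processed signal with background subtracted, no scaling between arrays, its error, and flags. The deposited intensity table of the series matrix equalled the processed signal times 100 over each array's 75th percentile. Both arrays were on 1 slide. Of 58717 rat spots, 664 flagged as outliers were left out and none was saturated. Log2 signals were centred on the 75th percentile and averaged per probe. RefSeq accessions were matched to symbols of assembly GRCr8, and the probe with the highest mean signal stood for a gene; symbols of the LOC and RGD kind were not counted as named. A probe was well above background when over 50% of its spots were. A dim side was raised to the lowest such probe signal of its array (15.3 units male, 12.9 female), giving a bound. Technical SDs came from probes with at least 5 spots on an array, by signal level. A gene counted as apart at 1.5-fold or 2-fold. Alternatives were normexp with an offset of 50 (limma 3.58.1, R 4.3.3) on the median spot signal (a mean signal was planned and not used here), quantile normalization, median centring, the mean over probes, bounds, flagged spots kept, the deposited table, and no spots in patches. The steps were tested on simulated data. Members and lists were chosen with earlier results of these data known. Every member is named, and of other lists the genes at least 1.5-fold apart (at most 6) or else the 2 with the largest difference; the genes picked out otherwise are marked, and 1 gene that the rule names is not reported here. The number of arrays, 2, limits the precision.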

Additional observations from a re-analysis of the deposited data

How the results depend on the processing

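The median of the motile cilia members stayed between -0.05 and -0.00 under the 8 alternatives run, and 0 of them were 1.5-fold apart under each. The median of the choroid plexus members stayed above 0, from 0.04 with normexp to 0.16 with the mean over probes. The count of choroid plexus members at least 1.5-fold apart, 1 as reported, was 0 with normexp, 0 with the mean over probes, 0 without spots in patches and 2 when dim sides were set to their bound. Of the other motile cilia genes, 3 as reported, 1 was past 1.5-fold with normexp and 0 without spots in patches. Prlr turned from 0.67 to -0.20 without spots in patches, where its other probe was used. Otx2 turned from -0.13 to 0.31 in the same way, and to 0.09 with the mean over probes. The cause of the other changes was not tested; the offset of normexp shrinks log differences of dim spots by construction. Among the members measured in both pools, 1 of 14 cilia genes (Tekt1) and 1 of 6 choroid plexus genes (Kcne2) changed sign between scalings. Under any alternative run, 3 of 14 (Tekt1, and Rsph1 and Ccdc40 with normexp) and 3 of 6 (Kcne2, Otx2 and Prlr) did. The signal over background limits Spag6, which was not well above background in either pool, and Spag16, Ccdc40, Ak7, Clic6, Kl and Kcnj13 most, where the technical SD was 0.46. No paired analysis was possible because each sex had 1 pool.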

Other observations

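Ependymal and tanycyte genes that do not belong to the cilium, which label the cells of the ventricle wall by other parts, were measured in both pools for 10 of 14 genes. Of these, 7 had more signal in males and 3 in females, at a median of 0.09, against -0.02 for the cilia members; the difference was not tested. Vim encodes vimentin, a filament protein. Its difference was 0.46 ± 0.03 over 10 spots, from 1047 and 778 units, and the gene is also active in meningeal and vascular cells. Gpr50, an orphan receptor gene of tanycytes, passed the background flag in females alone, at 24.1 units against 15.4, a bound of -0.61 with a technical SD of 0.46.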
